A study of Mus musculus with 12 samples.

Results

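Epithelial-mesenchymal transition (EMT) genes were read in colon tumours of FvB mice that lacked miR-34a, p53, both or neither in the intestinal epithelium. The set holds 9 genes chosen by name. The 6 transcription factors are Snai1, Snai2, Zeb1, Zeb2, Twist1 and Twist2, and the 3 effectors are Vim, Cdh2 and Fn1. These are 9 of the 21792 genes in the table, and all 9 were among the 21322 genes tested. Vim, the gene of the intermediate filament protein vimentin, and Snai2, the gene of the repressor Slug, were lower in p53 deficient than in miR-34a deficient tumours. Both also fell with p53 loss pooled over miR-34a status. The other 7 genes passed no comparison, and no gene of the set passed a comparison with wt tumours.

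In EMT, epithelial cells lose adherens junctions and gain motility and a mesenchymal cytoskeleton and matrix. The factors of the SNAIL, ZEB and TWIST families bind E-box motifs and repress epithelial genes such as Cdh1, the gene of E-cadherin. In human colorectal cancer cells p53 induces the miR-34 genes, miR-34a represses SNAI1, and SNAI1 in turn represses the miR-34 genes. In intact colon, Vim, Fn1, Snai2, Zeb1, Zeb2, Twist1 and Twist2 are also transcribed in fibroblasts and other stromal cells.

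All mice received azoxymethane, a carcinogen that induces colon tumours, at 10 mg/kg by weekly intraperitoneal injection for 6 weeks, with the end point at week 16 counted from the first injection. Tumours came from double deficient mice (miR-34a and p53 deleted in intestinal epithelial cells), p53 deficient mice, miR-34a deficient mice and wt mice, with 3 RNA libraries per genotype and 12 in all. The labels do not give the driver of the deletion, the age and sex of the mice and whether the libraries of a genotype come from separate animals. P-values thus measure only the spread among libraries. Because the deletions are epithelial, the stroma of each tumour keeps both genes. These are whole-tumour RNAs, so fewer cells of a type and less RNA per cell cannot be told apart.

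The libraries were checked against their labels before the set was read. Trp53, the gene of p53, ranged from 504 to 924 in double deficient, from 401 to 598 in p53 deficient, from 3466 to 5120 in miR-34a deficient and from 4126 to 4512 in wt libraries. Mir34a was not analysed here. Summed levels of 7 colon epithelium markers ranged from 151030 to 190428 in double deficient and from 209943 to 271480 in p53 deficient libraries. They ranged from 174740 to 240182 in miR-34a deficient and from 237192 to 293136 in wt libraries. The double deficient sums thus lay below every p53 deficient and every wt sum, and no marker of that list was at 0. Mean log2 levels of Y-linked genes lay between 0.25 and 0.79 in double deficient libraries and between 3.73 and 6.98 in p53 deficient libraries. They lay between 0 and 5.28 in miR-34a deficient and between 0 and 4.35 in wt libraries, so this measure moves with genotype. Another run code in the library names sets miR-34a deficient 1 and p53 deficient 1 apart from the other 10 libraries. Values are the authors' normalized expression values, rounded to whole numbers and not read counts, so depth is unknown and no counting interval can be given. They summed to 101121673 in miR-34a deficient 1 and to between 45310209 and 65060651 in every other library. The median ratio of a library's values to the mean library was 1.04 there and ran from 0.975 to 1.06 over all libraries.

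The miR-34a sequence and the matching site in Snai1 are shown because miR-34a represses SNAI1 in human colorectal cancer cells, as stated above. Mature miR-34a-5p comes from chr4:150068473-150068494 on the plus strand (RefSeq, GRCm38.p6), and its seed, bases 2 to 8, is in capitals.

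miR-34a-5p: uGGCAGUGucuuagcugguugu

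The search took the reverse complement of the seed, CACTGCC, with or without a following A, on the sense strand of 1 annotated 3' untranslated region per gene (GENCODE M21, GRCm38). Of the 9 genes only Snai1 held a match, an 8mer that starts at base 54 of its 731-base region, at chr2:167542137-167542144 on the plus strand. It is shown in capitals within its surroundings.

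Snai1 site: ctcaccctcctcctCACTGCCAggactcct

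Such a match was present in 2518 of 15873 genes with an annotated region (15.9%), and 1 of 9 genes of the set had one. A match is a description of the sequence and does not show binding.

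Promoter windows of Snai1 and Vim are shown because the SNAIL and ZEB factors bind the E-box CACCTG, whose other strand reads CAGGTG. Each window runs from 250 bases before to 50 bases after the annotated start (RefSeq, GRCm38.p6, plus strand), and capitals mark the E-box. The Snai1 window is chr2:167537945-167538244 and holds 1 match, 126 bases before the start. The Vim window is chr2:13574061-13574360 and holds none.

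Snai1 promoter: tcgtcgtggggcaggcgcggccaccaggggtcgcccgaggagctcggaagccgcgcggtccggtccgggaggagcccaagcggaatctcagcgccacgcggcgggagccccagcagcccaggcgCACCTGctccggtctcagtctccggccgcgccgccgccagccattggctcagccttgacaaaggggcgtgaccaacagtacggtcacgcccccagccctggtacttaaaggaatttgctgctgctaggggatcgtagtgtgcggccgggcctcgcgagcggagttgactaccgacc

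Vim promoter: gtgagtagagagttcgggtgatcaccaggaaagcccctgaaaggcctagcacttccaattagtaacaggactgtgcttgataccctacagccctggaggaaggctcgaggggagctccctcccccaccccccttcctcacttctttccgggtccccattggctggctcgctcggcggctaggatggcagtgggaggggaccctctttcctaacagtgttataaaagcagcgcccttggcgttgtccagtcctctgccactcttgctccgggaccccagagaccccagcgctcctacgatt

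The windows of Zeb2, Twist1 and Twist2 held no match either. The E-box was present in 6640 of 32851 promoter windows of the same length (20.2%), and a window without it says only that these letters are not there.

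Differences below are log2 differences ± SE between group means of log2(value + 1), from limma's moderated test over all tested genes with Benjamini-Hochberg adjustment. A gene passes at an adjusted p under 0.05, and n is 3 libraries per genotype. Pooled p53 loss is the mean of p53 deficient minus wt and double deficient minus miR-34a deficient, and pooled miR-34a loss is the mean of miR-34a deficient minus wt and double deficient minus p53 deficient. Comparisons that share a genotype share its libraries. Values are not scaled by gene length as far as is known, so levels are compared between genotypes and not between genes.

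Snai1 (chromosome 2, 167538195 to 167542814, plus strand) encodes Snail, a zinc finger repressor of Cdh1. Its normalized values were 102, 63 and 62 in double deficient libraries, 50, 18 and 51 in p53 deficient, 66, 91 and 82 in miR-34a deficient, and 43, 108 and 41 in wt. The p53 deficient libraries lay below every double deficient and every miR-34a deficient library, and the wt libraries spanned all the others but p53 deficient 2. No comparison passed. The log2 difference was 1.01 ± 0.48 in double deficient against p53 deficient tumours (adjusted p = 0.345) and -1.11 ± 0.48 in p53 deficient against miR-34a deficient tumours (adjusted p = 0.193). Pooled miR-34a loss gave 0.73 ± 0.34 (adjusted p = 0.369), and pooled p53 loss gave -0.38 ± 0.34 (adjusted p = 0.523).

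Snai2 (chromosome 16, 14705852 to 14709385, plus strand) is the paralog of Snai1. Its values were 51, 29 and 20 in double deficient libraries, 33, 17 and 5 in p53 deficient, 75, 79 and 136 in miR-34a deficient, and 47, 74 and 61 in wt. Every miR-34a deficient library lay above every library of the other 3 genotypes, and every p53 deficient library lay below every wt library. Snai2 was 6.1 times lower in p53 deficient than in miR-34a deficient tumours (-2.61 ± 0.58, adjusted p = 0.0377). Pooled p53 loss lowered it by 3.4 times (-1.77 ± 0.41, adjusted p = 0.036). The log2 difference was -1.98 ± 0.58 for p53 deficient against wt (adjusted p = 0.162) and -1.56 ± 0.58 for double deficient against miR-34a deficient tumours (adjusted p = 0.191), and neither passed. Pooled miR-34a loss gave 0.84 ± 0.41 (adjusted p = 0.396).

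The Snai2 calls rest on few libraries and low values. Its call between p53 deficient and miR-34a deficient tumours was kept in 8 of 22 alternatives, and the difference stayed below 0 in all 22 (-3.33 to -1.93). The adjusted p was 0.0821, 0.096 and 0.125 without miR-34a deficient 1, 2 and 3, and 0.0805 and 0.092 without p53 deficient 2 and 3. It was 0.0506 without wt 1, 0.0522 and 0.0592 without double deficient 2 and 3, and 0.161 with a Y-linked covariate in the fit. It was 0.061 with quantile normalization, 0.107 with only the compared groups in the fit, 0.0743 with the missing direction of variation in the fit and 0.0541 with no variance trend. The pooled call was kept in 10 of 21 alternatives. It was lost without wt 1, 2 or 3 (adjusted p = 0.0594, 0.0752 and 0.0527) and without miR-34a deficient 1, 2 or 3 (0.0619, 0.0736 and 0.0731). It was also lost without p53 deficient 3 (0.0524), double deficient 2 (0.0673) or double deficient 3 (0.11), with the missing direction of variation in the fit (0.0693) and with a Y-linked covariate (0.0557).

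**Figure D1:**
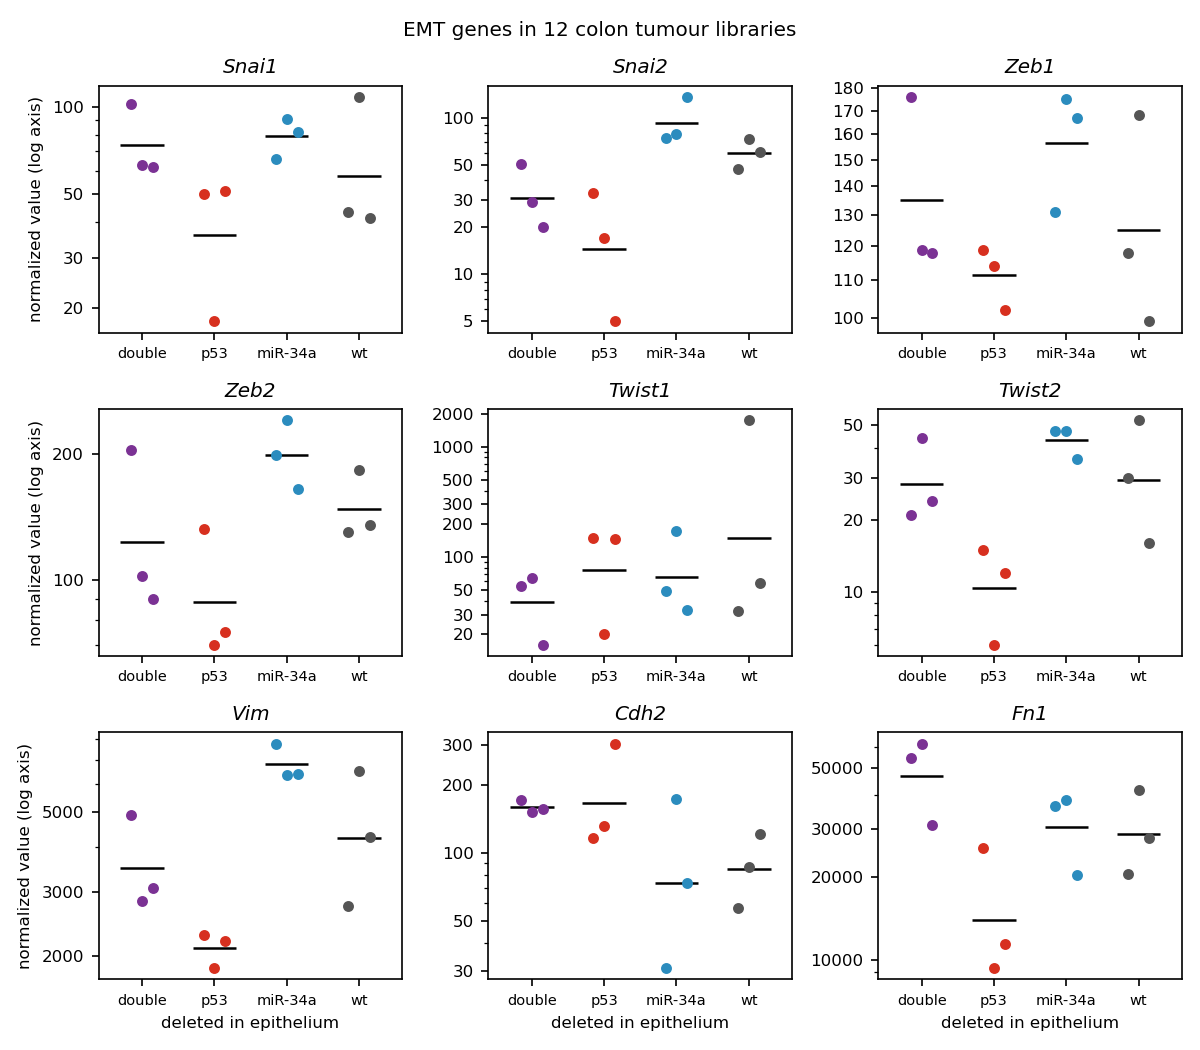
Normalized value (log axis) of each of the 9 genes in each of the 12 libraries, by genotype; points are libraries 1 to 3 from left to right and bars are means on the log2(value + 1) scale. The 3 p53 deficient points for Vim (1852 to 2278) and Twist2 (6 to 15) lie below all other points of those genes, and wt 2 stands at 1734 for Twist1.

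Zeb1 (chromosome 18, 5591860 to 5775467, plus strand) encodes a zinc finger repressor that the miR-200 family restrains. Its values were 176, 119 and 118 in double deficient libraries, 119, 114 and 102 in p53 deficient, 131, 175 and 167 in miR-34a deficient, and 118, 168 and 99 in wt. The p53 deficient libraries lay below the miR-34a deficient ones and overlapped with the other 2 genotypes. The log2 difference between p53 deficient and miR-34a deficient tumours was -0.49 ± 0.27 (adjusted p = 0.304). It was -0.19 ± 0.19 for pooled p53 loss (adjusted p = 0.586) and 0.30 ± 0.19 for pooled miR-34a loss (adjusted p = 0.519).

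Zeb2 (chromosome 2, 44983632 to 45117395, minus strand) is the second ZEB repressor and is also transcribed in macrophages. Its values were 204, 102 and 90 in double deficient libraries, 132, 70 and 75 in p53 deficient, 198, 240 and 165 in miR-34a deficient, and 130, 183 and 135 in wt. All 3 p53 deficient libraries lay below the 3 miR-34a deficient ones, and neighbours in the order of levels (p53 deficient, double deficient, wt, miR-34a deficient) overlapped. The log2 difference between p53 deficient and miR-34a deficient tumours was -1.16 ± 0.36 (adjusted p = 0.0935). Without p53 deficient 1, the highest library of its group, it was -1.44 ± 0.37 and passed (adjusted p = 0.0478). This was the only 1 of 22 alternatives in which it passed, and the adjusted p reached 0.296 with a Y-linked covariate in the fit. Pooled p53 loss gave -0.71 ± 0.25 (adjusted p = 0.12), and pooled miR-34a loss gave 0.45 ± 0.25 (adjusted p = 0.455).

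Twist1 (chromosome 12, 33957671 to 33959829, plus strand) encodes a basic helix-loop-helix factor of mesoderm. Its values were 55, 65 and 16 in double deficient libraries, 149, 20 and 145 in p53 deficient, 49, 172 and 33 in miR-34a deficient, and 32, 1734 and 58 in wt. The value of wt 2 stood far above the next highest library, miR-34a deficient 2 at 172, and libraries within each genotype differed by several times. The log2 difference of p53 deficient against wt was -0.96 ± 1.34 (adjusted p = 0.772), and without wt 2 it was 0.81 ± 0.98 (adjusted p = 0.768). That of p53 deficient against miR-34a deficient tumours was 0.22 ± 1.34 (adjusted p = 0.942), with a sign that changed with the library left out. Pooled p53 loss gave -0.85 ± 0.94 (adjusted p = 0.62; 0.03 ± 0.65 without wt 2), and pooled miR-34a loss gave -1.07 ± 0.94 (adjusted p = 0.652).

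Twist2 (chromosome 1, 91801461 to 91848028, plus strand) encodes the related factor of dermal and other fibroblasts. Its values were 21, 44 and 24 in double deficient libraries, 15, 6 and 12 in p53 deficient, 47, 47 and 36 in miR-34a deficient, and 30, 52 and 16 in wt. The 3 p53 deficient libraries lay below the other 9, and those 3 other genotypes overlapped. The log2 difference of p53 deficient against miR-34a deficient tumours was -1.96 ± 0.48 and just missed the threshold (adjusted p = 0.0511). It passed without p53 deficient 1 (adjusted p = 0.0429), wt 2 (0.0444) or wt 3 (0.0379). These were the only 3 of 22 alternatives in which it passed, and the adjusted p reached 0.202 with a Y-linked covariate in the fit. The other differences did not pass: 1.36 ± 0.48 in double deficient against p53 deficient tumours (adjusted p = 0.217), -1.42 ± 0.48 in p53 deficient against wt (0.207), -1.01 ± 0.34 for pooled p53 loss (0.105) and 0.95 ± 0.34 for pooled miR-34a loss (0.266).

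Vim (chromosome 2, 13573927 to 13582826, plus strand) is the most used mesenchymal effector of EMT and is also abundant in fibroblasts, endothelium and leukocytes. Its values were 4919, 2838 and 3086 in double deficient libraries, 2278, 1852 and 2199 in p53 deficient, 7757, 6330 and 6409 in miR-34a deficient, and 2744, 6518 and 4280 in wt. The p53 deficient libraries were the 3 lowest of the 12. Of the libraries of other genotypes, wt 2 alone lay within the range of the miR-34a deficient libraries, and the rest lay below it. Vim was 3.24 times lower in p53 deficient than in miR-34a deficient tumours (-1.69 ± 0.29, adjusted p = 0.0196). Pooled p53 loss lowered it by 1.98 times (-0.99 ± 0.20, adjusted p = 0.0246).

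The remaining Vim comparisons did not pass. The log2 difference was 0.74 ± 0.29 in double deficient against p53 deficient tumours (adjusted p = 0.255) and -0.96 ± 0.29 in double deficient against miR-34a deficient tumours (adjusted p = 0.12). It was -1.01 ± 0.29 in p53 deficient against wt (adjusted p = 0.152), 0.68 ± 0.29 in miR-34a deficient against wt (adjusted p = 0.78) and 0.71 ± 0.20 for pooled miR-34a loss (adjusted p = 0.172). The double deficient libraries lay above every p53 deficient and below every miR-34a deficient library.

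The Vim difference between p53 deficient and miR-34a deficient tumours kept its sign in all 22 alternatives (-1.77 to -1.60) and passed in 16. Its adjusted p was 0.0633 and 0.073 without miR-34a deficient 1 and 3, 0.0534 and 0.0603 without p53 deficient 2 and 3, and 0.0907 with a Y-linked covariate in the fit. Without both libraries of the other run code it was 0.0615. The pooled call was kept in 14 of 21 alternatives. It was lost without miR-34a deficient 1 (0.0561), miR-34a deficient 2 (0.057), p53 deficient 3 (0.0509), double deficient 2 (0.0508) and double deficient 3 (0.081). It was also lost with the missing direction of variation in the fit (0.0509) and without both libraries of the other run code (0.067).

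Fn1 (chromosome 1, 71585520 to 71653200, minus strand) encodes fibronectin, a matrix glycoprotein made by fibroblasts and by cells in EMT. Its values were 54501, 61565 and 30997 in double deficient libraries, 25541, 9328 and 11436 in p53 deficient, 36380, 38386 and 20303 in miR-34a deficient, and 20497, 41814 and 27891 in wt. Every double deficient library lay above every p53 deficient library, and p53 deficient 1 lay above the other 2 of its group and within the wt range. The log2 difference of double deficient against p53 deficient tumours was 1.75 ± 0.41 (adjusted p = 0.0935). Without p53 deficient 1 it was 2.19 ± 0.38 and passed (adjusted p = 0.0274), and without both libraries of the other run code it also passed (2.19 ± 0.39, adjusted p = 0.0485). These were the only 2 of 22 alternatives in which it passed. The difference stayed above 0 in all 22 (1.27 to 2.19), and the adjusted p reached 0.652 with a Y-linked covariate in the fit.

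The other Fn1 differences did not pass. The log2 difference was -1.13 ± 0.41 for p53 deficient against miR-34a deficient tumours (adjusted p = 0.138), and without p53 deficient 1 it was -1.56 ± 0.38 and passed (adjusted p = 0.0413). This was the only 1 of 22 alternatives in which it passed, and the adjusted p reached 0.405 with a Y-linked covariate in the fit. The log2 difference was -1.04 ± 0.41 for p53 deficient against wt (adjusted p = 0.267), 0.92 ± 0.29 for pooled miR-34a loss (adjusted p = 0.216) and -0.21 ± 0.29 for pooled p53 loss (adjusted p = 0.70). The interaction, which asks whether miR-34a loss acts differently with and without p53, was 1.67 ± 0.58 (adjusted p = 0.526). Fn1 was the only gene of the set whose interaction had an unadjusted p under 0.05 (0.0152).

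Cdh2 (chromosome 18, 16588877 to 16809246, minus strand) encodes N-cadherin, the cadherin that replaces E-cadherin in EMT. Its values were 171, 152 and 156 in double deficient libraries, 116, 132 and 305 in p53 deficient, 31, 174 and 74 in miR-34a deficient, and 57, 87 and 122 in wt. Its order of levels was unlike that of Vim, with the miR-34a deficient group lowest and the p53 deficient group highest, and the double deficient libraries lay above all wt libraries. No comparison passed. The log2 difference was 0.91 ± 0.56 in double deficient against wt (adjusted p = 0.491), 1.17 ± 0.56 in p53 deficient against miR-34a deficient tumours (adjusted p = 0.239), 1.04 ± 0.40 for pooled p53 loss (adjusted p = 0.143) and -0.13 ± 0.40 for pooled miR-34a loss (adjusted p = 0.916).

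Cdh1, the epithelial counterpart, passed none of the 9 comparisons. Its values were 51989, 67914 and 66443 in double deficient libraries, 62960, 68564 and 80438 in p53 deficient, 68325, 67780 and 61769 in miR-34a deficient, and 69632, 64200 and 67901 in wt. The difference between p53 deficient and miR-34a deficient tumours was 0.09 ± 0.14 (adjusted p = 0.719), that for pooled p53 loss was -0.02 ± 0.10 (adjusted p = 0.94), and that for pooled miR-34a loss was -0.11 ± 0.10 (adjusted p = 0.65).

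**Figure D2:**
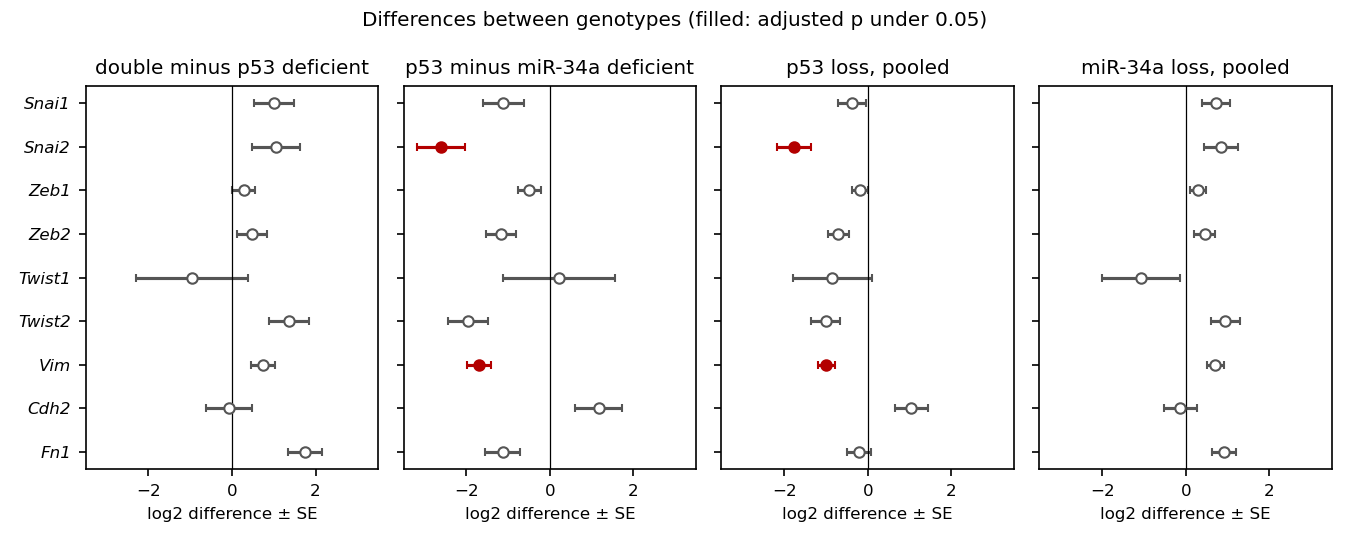
Log2 difference ± SE (x axis) of each of the 9 genes in 4 comparisons; filled red points have an adjusted p under 0.05. Only Snai2 and Vim are filled, in p53 minus miR-34a deficient (-2.61 and -1.69) and in pooled p53 loss (-1.77 and -0.99).

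Read together, p53 deficient against miR-34a deficient tumours gave 2 of 9 genes lower and 0 higher, where 3.39% of all tested genes passed and 2.25% passed as lower. Of the 9, 7 lay below 0, against 57.2% of all genes, and the median log2 difference was -1.13, against -0.10 over all genes. In 6 of the 9 genes the groups did not overlap and p53 deficient tumours were lower, which held for 16.6% of all genes. The 6 were Snai1, Snai2, Zeb1, Zeb2, Twist2 and Vim.

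Pooled p53 loss gave 2 lower and 0 higher of the 9, where 5.05% of all tested genes passed and 2.84% passed as lower. Its median was -0.71 over the 9 and -0.06 over all genes, and 8 of 9 lay below 0, against 55.5% of all genes. Pooled miR-34a loss gave 0 calls among the 9 with limma, where 0.342% of all genes passed, and 3 of 9 had an unadjusted p under 0.05, namely Twist2, Vim and Fn1, all higher, against 8.85% of all genes. Its median was 0.71 over the 9 and 0.04 over all genes.

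In the comparisons with wt no gene of the set passed with limma. In double deficient against wt 0 of 9 had an unadjusted p under 0.05, where 15.3% of all genes had one and 0.802% passed. In p53 deficient against wt 4 of 9 did, all lower (Snai2, Twist2, Vim and Fn1), where 0.0234% of all genes passed and 8.62% were lower at an unadjusted p under 0.05. In miR-34a deficient against wt 1 of 9 did, which was Vim and higher, where 0.0375% of all genes passed and 4.61% were higher at an unadjusted p under 0.05.

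Group means of double deficient tumours lay between those of the single deletions for 7 of the 9 genes, the exceptions being Twist1 and Fn1. The share of all genes with this order was not computed, so the count cannot be called particular to the set. Against p53 deficient tumours 0 of 9 passed with limma, 3 of 9 were higher at an unadjusted p under 0.05 (8.05% of all genes), and 4 of 9 (Snai1, Twist2, Vim and Fn1) were higher without overlap, where 0.605% of all genes passed and 10.7% were higher without overlap. Against miR-34a deficient tumours 0 of 9 passed with limma, 2 of 9 (Snai2 and Vim) had an unadjusted p under 0.05 and were lower without overlap, where 0.905% of all genes passed, 10.6% were lower at an unadjusted p under 0.05 and 14.3% were lower without overlap. The interaction gave 0 of 9 with limma and 1 of 9 at an unadjusted p under 0.05, where 0.0234% and 7.89% of all genes did.

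Most genes of the set varied together over the 12 libraries. Of the 36 pairs 29 had a Pearson's r above 0 on log2(value + 1). After Benjamini-Hochberg adjustment over the 36 pairs, 15 passed a two-sided permutation test on Pearson's r and 9 on Spearman's rho. Zeb2 and Vim had r = 0.87 and rho = 0.83 (permutation p = 0.00055 and 0.0016, adjusted 0.0084 and 0.0122), and r was 0.82 without the 2 libraries farthest from the median of Zeb2. Snai2 and Vim had r = 0.81 and rho = 0.87 (permutation p = 0.0007 and 0.00062, adjusted 0.0084 and 0.00744; r = 0.81 without 2 libraries). Snai1 and Zeb1 had r = 0.75 and rho = 0.89 (permutation p = 0.00217 and 0.0002, adjusted 0.0195 and 0.0072; r = 0.92 without 2 libraries).

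These correlations mix differences between genotypes with those between libraries of a genotype. On deviations from genotype means, 32 of 36 pairs had r above 0, and 0 passed on Pearson's r (lowest adjusted p 0.137) or Spearman's rho. The highest was 0.86 for Snai1 and Twist1 (permutation p = 0.0292, adjusted 0.137), and it was 0.76 without wt 2 and p53 deficient 2, the libraries farthest from the median of Snai1. Cdh2 stood apart, with r between -0.63 (Snai2) and 0.10 (Twist1) over the 12 libraries. Twist1 passed with no other gene of the set.

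**Figure D3:**
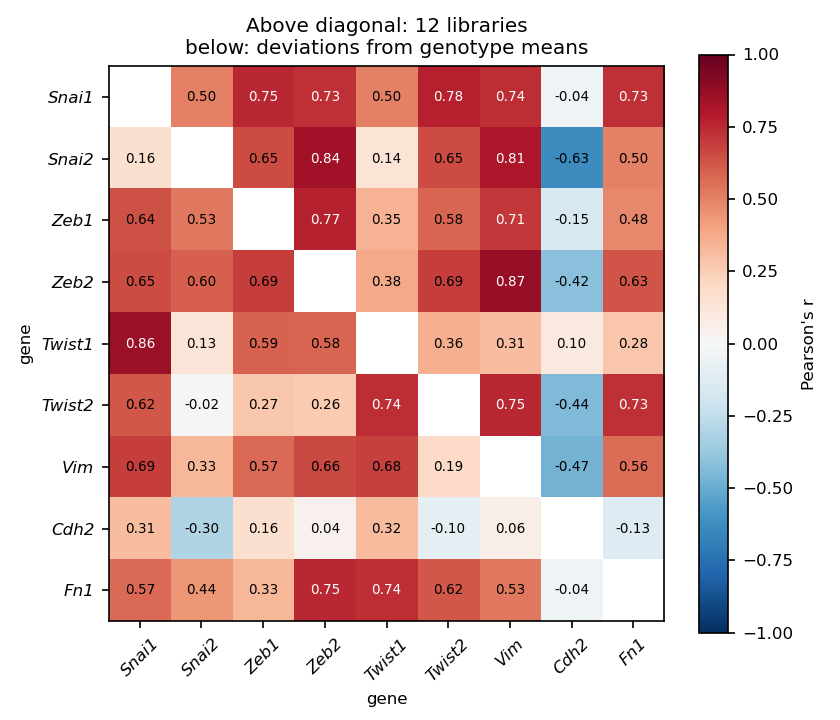
Pearson's r between the 9 genes on log2(value + 1); cells above the diagonal use the 12 libraries, cells below it use deviations from genotype means, and colour runs from -1 (blue) to 1 (red). Zeb2, Vim and Snai2 form the deepest red above the diagonal (0.81 to 0.87), and the Cdh2 column is mostly blue or pale.

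No other listed regulator of EMT passed. The list held 11 analysed genes, among them Sox4, Sox9, Klf8 and Prrx1, and 0 of the 11 passed in any of the 9 comparisons with limma. In p53 deficient against miR-34a deficient tumours 3 of 11 had an unadjusted p under 0.05, against 23.0% of all genes, 1 higher and 2 lower, and the smallest p was that of Sox4, a factor induced by TGF-beta (-0.88 ± 0.25, adjusted p = 0.079). Its values were 27514, 12064 and 17553 in p53 deficient libraries and 36033, 33249 and 30208 in miR-34a deficient libraries, which did not overlap. Zfp281, whose human counterpart ZNF281 is a miR-34a target that induces SNAI1, gave 0.08 ± 0.23 in that comparison (adjusted p = 0.87) and 0.03 ± 0.17 for pooled miR-34a loss (adjusted p = 0.965).

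Of 21 other mesenchymal effectors, genes of matrix, adhesion and contractility, 1 passed, with pooled p53 loss, where 5.05% of all genes passed, so the count lies at the share of all genes. Cd44, a hyaluronan receptor, had values of 22178, 24535 and 20514 in double deficient, 24074, 20080 and 23788 in p53 deficient, 14882, 19911 and 13667 in miR-34a deficient, and 14406, 14800 and 14789 in wt libraries. All 6 libraries of p53 deficient and double deficient tumours lay above the other 6. Cd44 rose with pooled p53 loss (0.55 ± 0.10, adjusted p = 0.0198), and the call was lost without double deficient 3 (0.0605) and without both libraries of the other run code (0.0632). The list's median for pooled p53 loss was -0.12.

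In p53 deficient against miR-34a deficient tumours 18 of the 21 effectors lay below 0 with a median of -0.56, and 0 passed with limma (5 at an unadjusted p under 0.05, against 23.0% of all genes, 4 of them lower). In miR-34a deficient against wt tumours 21 of 21 lay above 0 with a median of 0.47, against 0.03 over all genes, and 0 passed (3 higher at an unadjusted p under 0.05, against 4.61% of all genes). The smallest p there was that of Thbs1, the matrix protein thrombospondin-1 (1.08 ± 0.41, adjusted p = 0.766). Over all genes 54.2% lay above 0 in that comparison.

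Of 21 epithelial state genes (junctions, keratins and epithelial factors), 1 passed in double deficient against wt tumours and 0 in any other comparison with limma. In double deficient against wt tumours 0.802% of all genes passed. Ovol2, a repressor of Zeb1 and guardian of epithelial identity, had values of 213, 161 and 224 in double deficient libraries and 625, 407 and 373 in wt libraries. It fell by 1.2 ± 0.24 on the log2 scale in double deficient against wt tumours (adjusted p = 0.046), a call kept in 3 of 22 alternatives with the sign kept in all 22. With 1 library left out it was kept without miR-34a deficient 3 or p53 deficient 2 and lost without any other (0.0538 to 0.146). In pooled miR-34a loss 21 of 21 lay below 0 with a median of -0.22, where 44.2% of all genes lay below 0, and 0 passed with limma (5 lower at an unadjusted p under 0.05, against 4.89% of all genes). The smallest p was that of Esrp1, an epithelial splicing factor, at -0.36 ± 0.09 (adjusted p = 0.121). In p53 deficient against miR-34a deficient tumours 18 of 21 lay above 0 and 3 below, with a median of 0.18. Over all genes 57.2% lay below 0 there. Of the 21, 5 had an unadjusted p under 0.05, all higher, against 23.0% of all genes in either direction. Esrp1 again had the smallest p (0.46 ± 0.12, adjusted p = 0.0637). Summed levels ranged from 963799 to 1097659 in p53 deficient and from 726238 to 864272 in miR-34a deficient libraries.

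Of 12 ligands, receptors and SMAD proteins of TGF-beta signalling, a main inducer of EMT, 1 passed in p53 deficient against miR-34a deficient tumours. Of all tested genes 3.39% passed there and 2.25% passed as lower. Tgfbr3, the coreceptor betaglycan, stood at 42, 20 and 19 in p53 deficient libraries, against 87, 80 and 74 in miR-34a deficient libraries. It fell by 1.63 ± 0.38 on the log2 scale (adjusted p = 0.044), a call kept in 8 of 22 alternatives and lost without any miR-34a deficient library, p53 deficient 2 or 3, double deficient 2 or 3, or wt 1 or 2 (0.0516 to 0.131). Tgfb2, a ligand, had values of 292, 311 and 556 in miR-34a deficient and 100, 178 and 90 in wt libraries, which did not overlap, and did not pass (1.65 ± 0.40, adjusted p = 0.40).

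Markers of stromal cells that also transcribe these genes were read in the same comparison as Vim and Snai2, and 0 of them passed with limma. All 10 fibroblast markers lay below 0 in p53 deficient against miR-34a deficient tumours, where 57.2% of all genes did, with a median of -1.09. Of the 10, 3 were lower at an unadjusted p under 0.05, where 14.3% of all genes were. Their summed level was 16174, 12036 and 9903 in double deficient, 11330, 13078 and 9084 in p53 deficient, 17519, 23606 and 13744 in miR-34a deficient, and 11830, 19082 and 16083 in wt libraries. The p53 deficient sums lay below the miR-34a deficient ones. Over the 12 libraries the correlation with this sum on the log2 scale was 0.78 for Vim, 0.74 for Snai2 and 0.82 for Zeb2, and between -0.3 (Cdh2) and 0.66 (Zeb1) for the other 6 genes. On deviations from genotype means it was 0.57 for Vim, 0.42 for Snai2 and 0.66 for Zeb2. With the summed pericyte markers it was 0.53, 0.30 and 0.51 over the 12 libraries and 0.88, 0.47 and 0.67 on deviations. Within genotypes these genes thus did not follow the fibroblast sum most closely. The summed lymphocyte markers were mostly Ptprc, a gene of leukocytes in general (203 of 228 in wt 1, 141 of 208 in p53 deficient 3). That sum thus does not single out lymphocytes. Over the 12 libraries the correlation with it was 0.89 for Snai1, 0.84 for Zeb1 and 0.84 for Zeb2. These values share library and normalization.

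The other lists gave these values. Summed macrophage markers ranged from 7371 to 9324 in p53 deficient and from 9551 to 13294 in miR-34a deficient libraries, and 7 of 10 lay below 0 with a median of -0.91. Summed endothelial markers ranged from 1886 to 2865 in p53 deficient and from 2982 to 3650 in miR-34a deficient libraries, and 9 of 9 lay below 0 with a median of -0.80. Of these, 6 of the 10 macrophage and 5 of the 9 endothelial markers were lower at an unadjusted p under 0.05, against 14.3% of all genes. Summed smooth muscle markers ranged from 1316 to 1694 against 1543 to 1995, and pericyte markers from 1029 to 1217 against 1251 to 1675, in the same order of genotypes. In that order too, lymphocyte markers, mostly Ptprc, ranged from 129 to 212 against 232 to 359. Below 0 lay 7 of 7 smooth muscle markers (median -0.42), 4 of 5 pericyte markers (median -0.47) and 4 of 5 lymphocyte markers (median -0.22). The count below 0 was 2 of the 3 enteric glia markers tested (median -0.13), 1 of the 3 mesothelial markers tested (median 0.54) and 1 of the 7 colon epithelium markers (median 0.25). Of these lists 0 genes passed in this comparison, and no marker was at 0 in all libraries of a genotype. The part of stromal cell content in the differences of Vim and Snai2 was not tested.

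With pooled p53 loss the fibroblast markers also lay below 0 in 10 of 10 genes (median -0.60, 0 passed with limma and 5 were lower at an unadjusted p under 0.05, against 13.9% of all genes). Endothelial markers lay above 0 in 9 of 9 genes with pooled miR-34a loss (median 0.98, 0 passed and 9 were higher at an unadjusted p under 0.05, against 8.85% of all genes). Cdh5, the endothelial cadherin, rose in double deficient against wt tumours (2.01 ± 0.38, adjusted p = 0.0371, kept in 7 of 22 alternatives), and Kcnj8, a pericyte potassium channel, rose with pooled p53 loss (1.06 ± 0.26, adjusted p = 0.0419, kept in 6 of 21). These were 1 of 9 endothelial and 1 of 5 pericyte markers, where 0.802% and 5.05% of all genes passed. The Cdh5 call was lost without any double deficient library, p53 deficient 3, miR-34a deficient 1 or 2, or wt 1 or 3 (0.0543 to 0.133). The Kcnj8 call was lost without any library but p53 deficient 2 (0.0513 to 0.121).

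**Figure D4:**
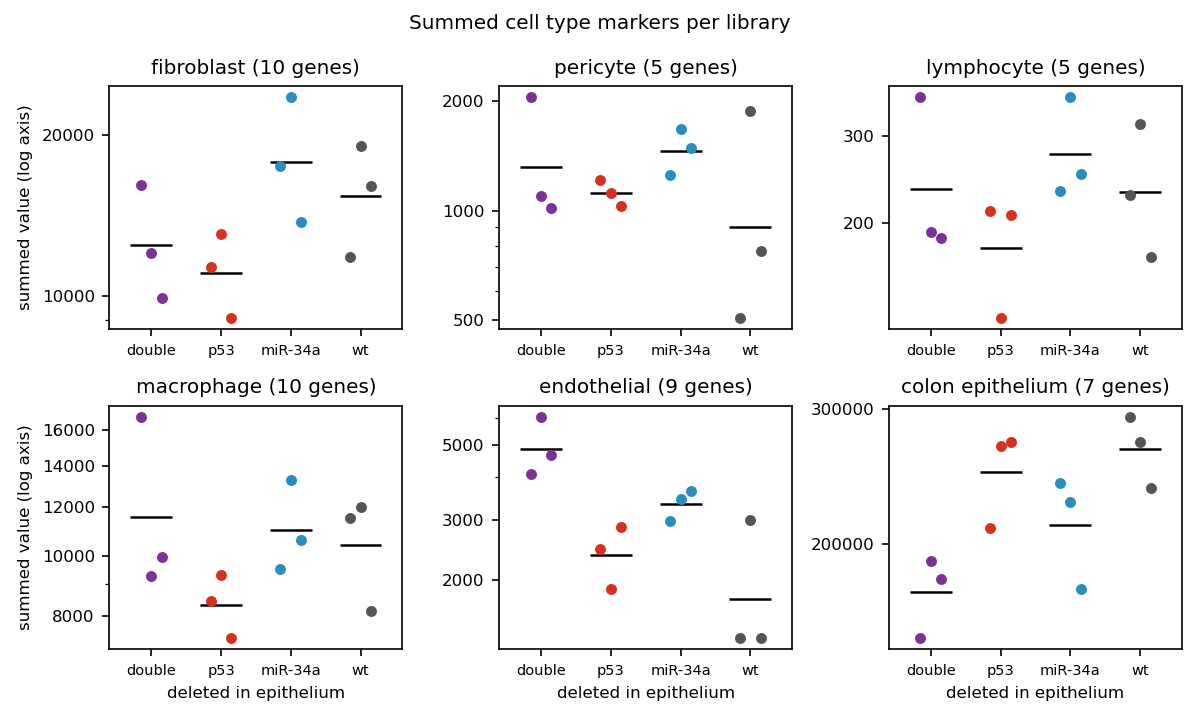
Summed normalized values (log axis) of 6 marker lists in each of the 12 libraries, by genotype; points are libraries 1 to 3 from left to right and bars are means on the log2 scale. Fibroblast sums are at most 13078 in p53 deficient and at least 13744 in miR-34a deficient libraries, and endothelial sums are highest in double deficient libraries (4089 to 6027).

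The genes most like each member were taken as the 3 with the highest Pearson's r over the 12 libraries among 11828 genes whose mean value reached 100, and the values carry no test. For Vim these were Snhg7 (0.943), Unc5d (0.937) and Rps6ka2 (0.935), and for Snai2 Gls2 (0.956), Phf21a (0.953) and Gpld1 (0.948). For Snai1 they were Extl3 (0.954), Havcr2 (0.944) and Csf2rb (0.936), for Zeb1 Plxdc2 (0.96), Igfbp7 (0.948) and Il3ra (0.937), and for Zeb2 Htra3 (0.95), Msr1 (0.948) and Slc9a3r2 (0.945). For Twist1 they were Msantd3 (0.916), Osbpl3 (0.915) and Osbpl5 (0.914), for Twist2 Ephb6 (0.955), Echdc2 (0.941) and Dach1 (0.939), for Cdh2 Dapk1 (0.942), Ripk3 (0.89) and Mctp2 (0.877), and for Fn1 Ugt2b35 (0.951), Casq2 (0.948) and Itpr2 (0.942). The named genes were not sorted by cell type, and why they vary with the members was not tested. No gene was named for more than 1 member.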

How the data were processed

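Total RNA of 12 colon tumours was sequenced, with libraries made by standard Illumina protocols per the labels. The authors deposited 1 table of score values, which are whole numbers per gene symbol that behave as normalized expression levels and not as counts. The submitters' processing notes name build mm10. Aligner, counting and normalization: not given in the sources used here. Depth is therefore unknown. Deviations from genotype means spanned 1 direction fewer than the 8 residual degrees of freedom allow (squared weight 47.2% on double deficient 3 and 16.5% on double deficient 2), so a direction of variation is missing from the values. The main fit still counts all 8 degrees, so its p-values can be too small. With that direction in the fit, the Snai2 call between p53 deficient and miR-34a deficient tumours was lost (adjusted p = 0.0743). The pooled p53 calls of Snai2 (0.0693) and Vim (0.0509) were also lost, while the Vim call between those tumours was kept.

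Of 21792 genes, 21322 with a mean of at least 1 were fitted with limma 3.58.1 in R 4.3.3 on log2(value + 1), with a trend in the prior variance, 1 mean per genotype and Benjamini-Hochberg adjustment over all genes tested. The 9 comparisons were the 6 pairs of genotypes, both pooled losses and the interaction. Pairs of genes were correlated with 100000 permutations (scipy 1.17.1). The procedure was tested on simulated data. For limma these had independent noise in every gene and library and no missing direction. That test thus does not give the error rate on the values used here.

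The genes, the lists and the tests were chosen with earlier results of these data known. The genes named are the 9, Cdh1, Trp53 and Zfp281, the passing members of each list (at most 3) or else the one with the smallest p, and the 3 most like each of the 9. Same-numbered libraries were not paired: the correlation of their deviations exceeded 0.1 in 4 of 18 cases. The highest were 0.539 for p53 deficient 3 with double deficient 3 and 0.372 for miR-34a deficient 3 with double deficient 3. Alternatives were other normalizations, pseudocounts, filters, fits and covariates, and leaving out libraries. Results of some genes are not reported here, and the lists and their counts leave those genes out.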

Additional observations from a re-analysis of the deposited data

How the results depend on the processing

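The main count of 2 genes passing between p53 deficient and miR-34a deficient tumours was 1 with quantile normalization, with only the groups compared in the fit, with the missing direction in the fit, without the other run code and with no variance trend, and 0 with a Y-linked covariate. It ran from 0 to 5 with 1 library left out. With the replicate number as a block it was 1, and the block changed no other call of the set. Only 5 of 12 libraries correlated best with their own number. Whether same-numbered libraries share more than the number was not tested. For pooled p53 loss the count of 2 was 0 with the missing direction in the fit and 1 with the Y-linked level or without the other run code, and 0 to 2 with 1 library left out. In double deficient against p53 deficient tumours the count of 0 was 1 without the other run code and 0 to 1 with 1 library left out. In the other 6 comparisons it was 0 under every alternative. The count of 15 passing correlations was 0 on deviations from genotype means. The cause of these changes was not tested.

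Of the 41 differences of the 9 genes printed above, 5 changed sign under some alternative, none of them called: that of Zeb1 for pooled p53 loss with quantile normalization (0.01), that of Twist1 in p53 deficient against miR-34a deficient tumours with the Y-linked level (-0.01), without the other run code (-0.47) and with 1 library left out (-0.27 to 1.15), that of Cdh2 for pooled miR-34a loss with the Y-linked level (0.50), without the other run code (0.04) and with 1 library left out (-0.44 to 0.18), and those of Twist1 with 1 library left out for pooled p53 loss (-1.40 to 0.03) and p53 deficient against wt (-2.05 to 0.81). The cause was not tested. Of the 40 differences not printed, 16 changed sign under some alternative.

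Over all tested genes, the 722 called between p53 deficient and miR-34a deficient tumours became 27 to 770 under the alternatives and 41 to 1267 with 1 library left out, and the 1076 for pooled p53 loss became 321 to 1104 and 71 to 1325. With unknown depth and values of 5 to 136 for Snai2 and 6 to 52 for Twist2, their counting error cannot be separated from variation between libraries.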
